A study of Mus musculus with 12 samples.

Results

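The 10 genes described here control the passage from G1 into S phase of the cell cycle. They are the cyclin-dependent kinase (CDK) inhibitors Cdkn1a, Cdkn1b, Cdkn2a, Cdkn2b, Cdkn2c and Cdkn2d, the D cyclins Ccnd1, Ccnd2 and Ccnd3, and the E cyclin Ccne1. They were taken by gene symbol from 22180 genes with a probe set of their own, each of the 10 had 1 probe set, and all 10 were among the 19152 genes bright enough to test. RNA was measured with an Affymetrix mouse gene array in sorted cells of 6 leukaemias. Their oncogene was MLL-AF9, a gene fusion found in human acute leukaemias. Leukaemias 81, 83 and 85 were labelled Dnmt3b-knockin, a genotype that the titles describe as overexpression of the DNA methyltransferase Dnmt3b. Leukaemias 73, 75 and 79 were labelled WT. Each leukaemia gave 1 ckit-pos and 1 ckit-neg array, sorted for c-kit, the receptor of stem cell factor on immature blood cells, which made 4 groups of 3 arrays.

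All 12 samples carried the MLL-AF9 oncogene, so there was no normal tissue among them. The labels gave neither the promoter of the Dnmt3b allele, the age or sex of the animals, nor whether each leukaemia number was a separate mouse, and p-values measure the spread between these samples, which may be technical. Titles named bone marrow, whereas the source field named spleen. Kit matched the sort, at 8.15, 7.88 and 7.98 on the Dnmt3b-knockin ckit-pos arrays of leukaemias 81, 83 and 85, against 6.47, 6.87 and 6.75 on their ckit-neg arrays. In WT leukaemias 73, 75 and 79, Kit was 8.01, 8.13 and 8.34 on ckit-pos arrays and 6.69, 6.72 and 6.57 on ckit-neg arrays. Dnmt3b did not separate the genotypes. It averaged 6.40 ± 0.08 on Dnmt3b-knockin and 6.47 ± 0.17 on WT ckit-pos arrays, and 6.38 ± 0.24 on Dnmt3b-knockin and 6.24 ± 0.14 on WT ckit-neg arrays (SD, n = 3 each). The genotype is therefore that of the labels, and the RNA level of Dnmt3b does not check it. Leukaemia 81 stood apart in Xist, the non-coding RNA that silences an X chromosome in female cells, with 6.30 and 6.27 on its ckit-pos and ckit-neg arrays, against 9.83 to 11.7 on the other 10 arrays, and values that moved widely without it are given without it too. Values are log2 RMA levels throughout, and levels of different probe sets are not compared.

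A cell in G1 divides again once CDK4 or CDK6 with a D cyclin, and then CDK2 with an E cyclin, phosphorylate the retinoblastoma protein and free the E2F transcription factors. The Cip/Kip inhibitors p21 (Cdkn1a) and p27 (Cdkn1b) bind cyclin-CDK complexes and restrain CDK2, while the INK4 inhibitors p16, p15, p18 and p19 (Cdkn2a to Cdkn2d) bind CDK4 and CDK6. In the myeloid lineage, progenitors cycle and cells leave the cycle as they mature into neutrophils and monocytes. MLL-AF9 leukaemias depend on CDK6, and the Cdkn2a and Cdkn2b locus is a known site of silencing in blood cancers.

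Promoter sequences are shown for the 3 genes that differed between the c-kit fractions in the paired fit below, Cdkn1a, Cdkn1b and Ccne1. The 250 bases before the annotated start site are given 5′ to 3′, from RefSeq on GRCm38.p6, with GC boxes (GGGCGG on either strand) in capitals. They lie at chr17:29093519-29093768 on the plus strand for Cdkn1a, which has a further annotated start, at chr6:134920151-134920400 on the plus strand for Cdkn1b, and at chr7:38107491-38107740 on the minus strand for Ccne1.
Cdkn1a: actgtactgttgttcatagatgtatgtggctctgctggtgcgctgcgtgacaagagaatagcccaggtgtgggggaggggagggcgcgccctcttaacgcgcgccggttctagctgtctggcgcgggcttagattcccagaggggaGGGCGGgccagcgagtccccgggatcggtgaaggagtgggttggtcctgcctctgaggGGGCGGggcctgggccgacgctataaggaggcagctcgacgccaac
Cdkn1b: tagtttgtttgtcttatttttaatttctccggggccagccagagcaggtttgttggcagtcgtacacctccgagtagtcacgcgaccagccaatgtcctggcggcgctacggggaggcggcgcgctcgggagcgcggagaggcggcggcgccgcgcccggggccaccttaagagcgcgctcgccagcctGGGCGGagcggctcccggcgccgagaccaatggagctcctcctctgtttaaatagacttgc
Ccne1: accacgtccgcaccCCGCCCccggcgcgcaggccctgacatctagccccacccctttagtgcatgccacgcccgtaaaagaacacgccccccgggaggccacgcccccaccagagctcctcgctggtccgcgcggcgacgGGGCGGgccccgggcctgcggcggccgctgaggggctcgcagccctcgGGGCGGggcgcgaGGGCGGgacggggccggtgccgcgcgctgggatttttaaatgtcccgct

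Cdkn2a is shown at both of its annotated starts, since they begin different transcripts (p19Arf from the upstream start and p16Ink4a from the downstream start) and the single probe set does not tell these transcripts apart. The upstream window is chr4:89294620-89294869 and the downstream window chr4:89282193-89282442, both on the minus strand, with GC boxes and the E2F site TTTCCCGC in capitals.
Cdkn2a upstream start: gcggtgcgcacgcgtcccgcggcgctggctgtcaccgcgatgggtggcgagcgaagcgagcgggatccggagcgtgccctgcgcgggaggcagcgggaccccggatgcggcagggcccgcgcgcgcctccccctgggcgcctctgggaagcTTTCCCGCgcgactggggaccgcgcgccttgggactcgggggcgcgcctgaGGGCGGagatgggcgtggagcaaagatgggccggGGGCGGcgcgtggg
Cdkn2a downstream start: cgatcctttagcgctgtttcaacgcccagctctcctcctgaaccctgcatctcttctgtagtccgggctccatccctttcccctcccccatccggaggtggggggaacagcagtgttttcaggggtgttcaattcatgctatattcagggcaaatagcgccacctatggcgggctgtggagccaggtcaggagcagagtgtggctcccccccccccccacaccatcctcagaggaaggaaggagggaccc

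The RefSeq table held 12 promoters for 8 of the 10 genes, all but Ccnd1 and Ccnd2. Both strands were searched for the E2F sites TTTGGCGC and TTTCCCGC, the GC box GGGCGG, the E box CACGTG and the TATA element TATAAA, and 0 matches of different motifs overlapped. A GC box stood in 8 of the 12 windows, against 32.7% of all 32851 promoters of that length. TTTCCCGC stood in 1, the upstream start of Cdkn2a, against 0.895% of all promoters. The other motifs had 0 matches, and their shares of all promoters were 0.417% for TTTGGCGC, 6.02% for CACGTG and 12.4% for TATAAA. Ccne1 had 4 GC boxes, the Cdkn1a start shown had 2 and Cdkn1b had 1. CpG dinucleotides, which DNA methyltransferases act on, numbered 34 before Ccne1, 28 before Cdkn1b, and 19 before the Cdkn1a start shown. The other annotated Cdkn1a start had 2 CpG dinucleotides and 0 GC boxes. Cdkn2a had 40 at its upstream and 7 at its downstream start, and the median of all promoters was 6. Cdkn2a and Cdkn2b are neighbours, with 0 protein-coding genes between them. No methylation was measured, so these are features of the reference sequence only.

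The first comparison asks how the genes differ between the ckit-pos and the ckit-neg cells of the same leukaemias. The Cip/Kip inhibitors Cdkn1a and Cdkn1b were lower and cyclin E1 was higher in ckit-pos than in ckit-neg cells in the paired fit, while no INK4 inhibitor or D cyclin passed the adjusted threshold. None of the 10 genes passed an adjusted p of 0.05 over both genotypes in the limma fit that treats the 12 arrays as independent, in which 8.25% of all genes tested did. With each leukaemia as its own block, 3 of the 10 passed, against 19.6% of all genes. That share of the members is not far from the background. In this paired fit Cdkn1a and Cdkn1b fell and Ccne1 rose in ckit-pos cells. In bulk samples, fewer cells of a type and less RNA per cell cannot be told apart.

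**Figure D1:**
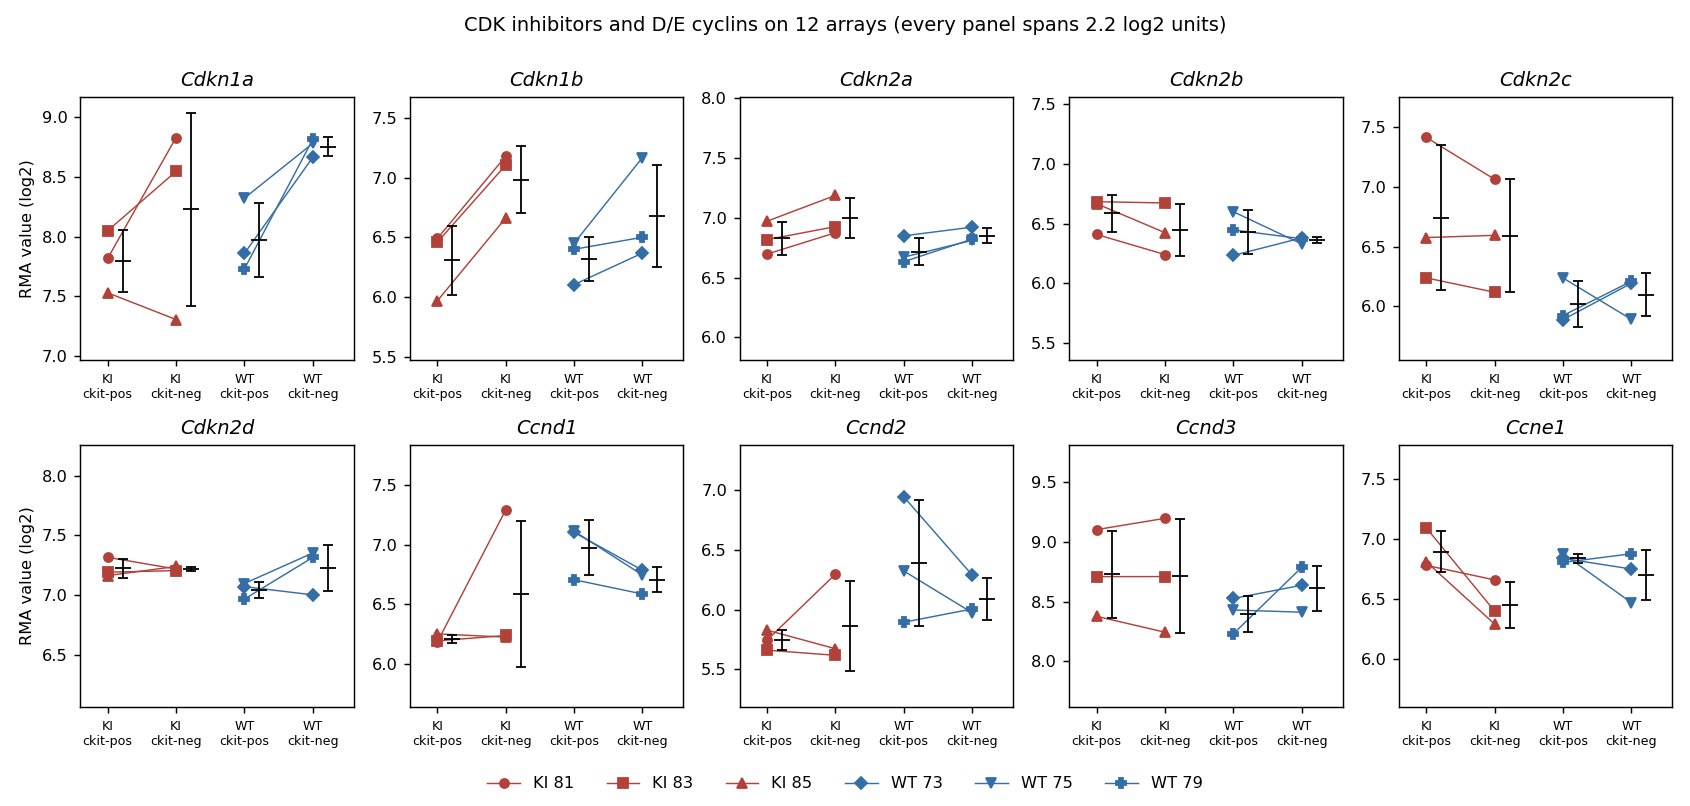
Log2 RMA values of the 10 genes on 12 arrays, with Dnmt3b-knockin (KI, red) left of WT (blue) and ckit-pos left of ckit-neg. Lines join both arrays of a leukaemia, black bars are mean ± SD (n = 3), and Cdkn1b is lower on the ckit-pos side in all 6 leukaemias.

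Cdkn1b, which encodes p27 and holds resting cells out of the cycle, had the larger difference of the 2 genes that were lower in ckit-pos cells in all 6 leukaemias. Its values in Dnmt3b-knockin leukaemias 81, 83 and 85 were 6.49, 6.46 and 5.97 on ckit-pos arrays, against 7.18, 7.11 and 6.66 on ckit-neg arrays. In WT leukaemias 73, 75 and 79 they were 6.10, 6.45 and 6.40 on ckit-pos arrays, against 6.37, 7.17 and 6.50 on ckit-neg arrays. The fractions did not overlap in Dnmt3b-knockin cells and overlapped in WT cells, but within each leukaemia the ckit-pos array was the lower one. The differences within leukaemias were -0.69, -0.64 and -0.69 in Dnmt3b-knockin, against -0.26, -0.72 and -0.10 in WT. Over all 6 the difference was -0.52 (SE 0.08, 95% interval -0.70 to -0.34), or 1.43-fold lower, with an adjusted p of 0.00105 in the paired limma fit and 0.0517 in the unpaired one. An exact two-sided sign-flip test over the 6 leukaemias gave p = 0.03125, the smallest that 6 pairs allow. The paired call held without each leukaemia in turn, at adjusted p from 0.000906 to 0.00526. Direction within all 6 leukaemias was shared by 2 of the 10 genes, Cdkn1b and Cdkn2a, both lower, against 21.9% of all genes. That share of the members is near the background and does not set them apart.

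Cdkn1a encodes p21, a target of p53 that is also expressed in maturing myeloid cells. In Dnmt3b-knockin leukaemias 81, 83 and 85 its values were 7.82, 8.05 and 7.53 on ckit-pos arrays, against 8.83, 8.55 and 7.31 on ckit-neg arrays. WT leukaemias 73, 75 and 79 had 7.86, 8.32 and 7.73 on ckit-pos arrays, against 8.66, 8.78 and 8.81 on ckit-neg arrays. The WT fractions did not overlap, and leukaemia 85 was the exception among the 6, with the lowest Cdkn1a of all arrays in its ckit-neg cells. Over both genotypes the difference was -0.61 (SE 0.13, 95% interval -0.90 to -0.31), 1.52-fold lower, at an adjusted p of 0.00761 in the paired limma fit and 0.105 in the unpaired one. The exact sign-flip p was 0.0625, with 5 of 6 leukaemias lower. The paired adjusted p stayed between 0.00113 and 0.0314 when each leukaemia was left out. Without leukaemia 85 the difference was -0.77, and the unpaired limma fit then gave an adjusted p of 0.00345.

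Ccne1 encodes cyclin E1, the partner of CDK2 at the start of S phase and itself an E2F target. Its levels in Dnmt3b-knockin leukaemias 81, 83 and 85 were 6.78, 7.09 and 6.81 on ckit-pos arrays, against 6.66, 6.40 and 6.29 on ckit-neg arrays. In WT leukaemias 73, 75 and 79 they were 6.84, 6.88 and 6.81 on ckit-pos arrays, against 6.75, 6.47 and 6.88 on ckit-neg arrays. Leukaemias 83, 85 and 75 had the wide gaps, and in leukaemia 79 the ckit-neg array was marginally higher. The difference was 0.29 (SE 0.09, 95% interval 0.10 to 0.49), 1.23-fold higher, at an adjusted p of 0.0377 in the paired limma fit and 0.0754 in the unpaired one, with an exact sign-flip p of 0.0625. This call was the least stable of the 3. The paired limma adjusted p was 0.0795 without leukaemia 73, 0.15 without 75, 0.147 without 83 and 0.103 without 85, and it was 0.0511 after quantile normalization. Without leukaemia 81 the difference was 0.38, at an adjusted p of 0.0106 in the paired and 0.0273 in the unpaired limma fit.

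**Figure D2:**
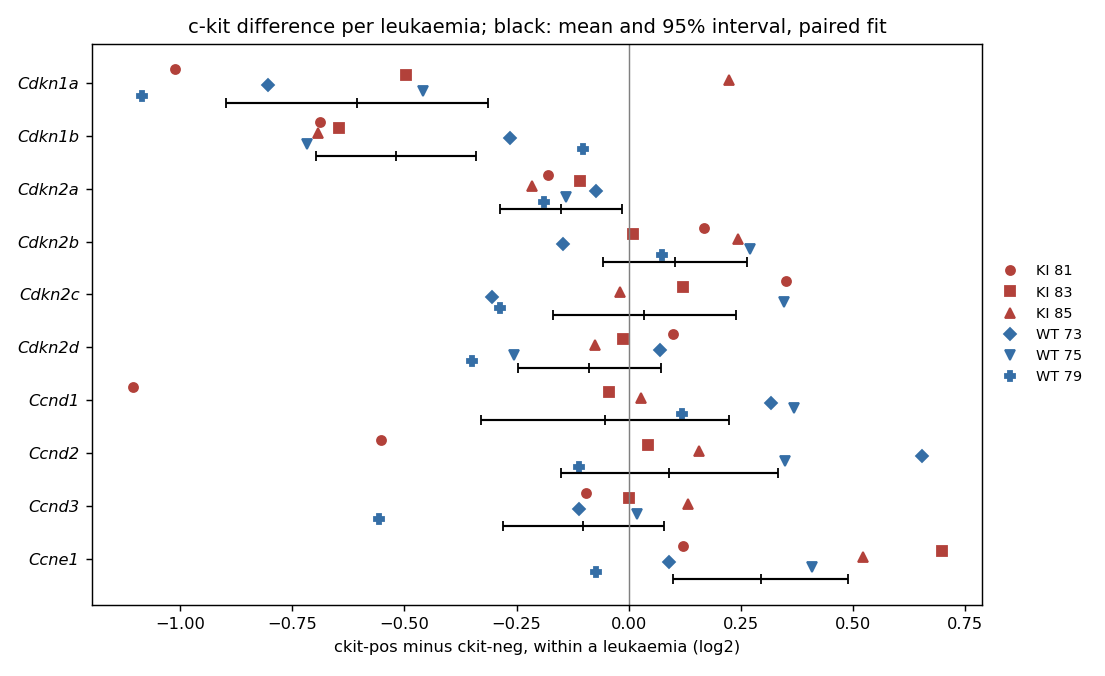
Difference in log2 value between the ckit-pos and ckit-neg array of each leukaemia, for the 10 genes. Symbols are single leukaemias (Dnmt3b-knockin, KI, red and WT blue), black bars the mean and 95% interval of the paired fit. The interval lies below 0 for Cdkn1a, Cdkn1b and Cdkn2a and above 0 for Ccne1, and Cdkn2a did not pass after adjustment.

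Within each genotype, fewer genes passed. In Dnmt3b-knockin leukaemias, 0 of the 10 passed in the unpaired fit, against 1.88% of all genes, and 2 in the paired fit, against 8.7%. Cdkn1b was 1.60-fold lower in ckit-pos cells (log2 -0.68, SE 0.12, paired limma adjusted p = 0.00385), and Ccne1 was 1.36-fold higher (log2 0.45, SE 0.13, paired limma adjusted p = 0.0496). The Ccne1 call was lost without leukaemia 73, 75, 83 or 85, at paired limma adjusted p of 0.0737, 0.0527, 0.318 and 0.208. Leukaemias 73 and 75 are WT, so the Ccne1 difference stayed at 0.45 without either of them. It was 0.32 without 83 and 0.41 without 85. Cdkn1a had a difference of -0.43 in these leukaemias and a paired limma adjusted p of 0.221. Without leukaemia 85 it was -0.75, at an adjusted p of 0.0279, and without leukaemia 81 it was -0.14, at 0.730.

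WT leukaemias had 0 of 10 in the unpaired fit, against 0.768% of all genes. The paired fit had 1 of 10, near the 11% of all genes. The gene that passed was Cdkn1a, 1.72-fold lower in ckit-pos cells (log2 -0.78, SE 0.19, paired limma adjusted p = 0.0228). With only 3 WT leukaemias its call depended on each: the adjusted p was 0.111 without leukaemia 73, 0.0630 without 75 and 0.136 without 79. Cdkn1b had a difference of -0.36 in WT and a paired limma adjusted p of 0.0687. Whether the c-kit difference itself depended on the genotype was tested as an interaction. None of the 10 genes passed, as for all genes, where 0% did and 427 had an unadjusted p under 0.05. The genotypes' c-kit differences were 0.35 apart for Cdkn1a, -0.31 for Cdkn1b and 0.31 for Ccne1, each with a limma adjusted p of 1.0, and 0.908, 0.880 and 0.904 in the paired fit. When each leukaemia was left out these values ranged from 0.03 to 0.65, from -0.49 to -0.18 and from 0.18 to 0.47.

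None of the 4 INK4 genes passed between the fractions. Cdkn2a, whose locus encodes p16Ink4a and p19Arf, was lower on the ckit-pos array of all 6 leukaemias, by between 0.07 and 0.22. Its values were 6.70, 6.82 and 6.97 in Dnmt3b-knockin leukaemias 81, 83 and 85 on ckit-pos arrays, against 6.88, 6.93 and 7.19 on ckit-neg arrays. WT leukaemias 73, 75 and 79 had 6.85, 6.67 and 6.63 on ckit-pos arrays, against 6.92, 6.81 and 6.82 on ckit-neg arrays. The difference of -0.15 (SE 0.06) had a limma adjusted p of 0.115 in the paired fit and 0.281 in the unpaired one, and an exact sign-flip p of 0.03125. Cdkn2a followed the median of the whole array, with a Pearson r of 0.913 over the 12 arrays, against -0.60 to 0.31 for the other 9 genes. Array medians ranged from 5.56 to 5.71, and in each leukaemia the ckit-pos array had the lower median, the same direction as Cdkn2a. After each array was centred on its median the difference was -0.11, at a limma adjusted p of 0.377, and the part of the array median in the result was not tested further.

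Cdkn2b (p15), Cdkn2c (p18) and Cdkn2d (p19Ink4d) had c-kit differences of 0.10, 0.03 and -0.09, at paired limma adjusted p of 0.356, 0.821 and 0.433. The 95% intervals were -0.06 to 0.26, -0.17 to 0.24 and -0.25 to 0.07. Cdkn2b was higher in ckit-pos cells in 5 of 6 leukaemias, Cdkn2c in 3 and Cdkn2d in 2. All 12 values lay between 6.23 and 6.68 for Cdkn2b and between 6.97 and 7.35 for Cdkn2d, a range of 0.45 and 0.39. Cdkn2c spanned 1.52, from 5.89 to 7.41, and its c-kit differences ran from -0.30 to 0.35.

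D cyclins did not follow the c-kit sort. Ccnd1, Ccnd2 and Ccnd3 differed by -0.05, 0.09 and -0.10 between ckit-pos and ckit-neg cells, at paired limma adjusted p of 0.795, 0.602 and 0.418. Their 95% intervals were -0.33 to 0.22, -0.15 to 0.33 and -0.28 to 0.08. Ccnd1 was higher on the ckit-pos array in all 3 WT leukaemias, by 0.32, 0.37 and 0.12. In Dnmt3b-knockin leukaemias 81, 83 and 85 its differences were -1.11, -0.05 and 0.03, so that leukaemia 81 alone set the mean there. The interaction for Ccnd1 was -0.64 (SE 0.25 in the paired fit), with a limma adjusted p of 0.811 paired and 1.0 unpaired and an exact p of 0.1. Without leukaemia 81 the interaction was -0.28. The smallest exact p that 3 against 3 allows is 0.1.

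The second comparison asks how Dnmt3b-knockin leukaemias differ from WT leukaemias within a fraction. In ckit-pos cells the D cyclins Ccnd1 and Ccnd2 had lower values in Dnmt3b-knockin leukaemias, and Cdkn2c and Cdkn2d had higher ones, with no overlap between the genotypes. None of the 10 genes passed the limma test across all genes in ckit-pos cells, where 0.141% of all genes did. Genotypes failed to overlap for 4 of the 10 genes there (2 higher, 2 lower), against 17.4% of all genes. In ckit-neg cells 0 of the 10 passed, against 0.0627% of all genes, and 0 were free of overlap, against 8.88%. Over the mean of both fractions 0 passed, against 0.0261%.

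Ccnd1, which encodes the cyclin D1 that activates CDK4 and CDK6, had the largest genotype difference of the 10 in ckit-pos cells. On ckit-pos arrays it was 6.18, 6.19 and 6.25 in Dnmt3b-knockin leukaemias 81, 83 and 85, against 7.10, 7.11 and 6.71 in WT leukaemias 73, 75 and 79. All 3 Dnmt3b-knockin values lay within a narrow band below every WT value. The difference was -0.76 (SE 0.23, 95% interval -1.25 to -0.27), 1.70-fold lower, with a limma adjusted p of 0.231 and an exact permutation p of 0.1. It passed at an adjusted p of 0.0446 without leukaemia 81 (difference -0.75) and of 0.0486 in a limma fit of these 6 arrays alone. Over all genes, 123 passed without leukaemia 81 and 64 in that fit of 6 arrays, against 27 in the fit of all arrays. When each leukaemia was left out in turn, the limma adjusted p of Ccnd1 ranged from 0.0446 to 0.705. It was under the threshold only without leukaemia 81. The difference ranged from -0.90 to -0.69. On ckit-neg arrays Ccnd1 was 7.29, 6.24 and 6.23 in Dnmt3b-knockin leukaemias, against 6.79, 6.75 and 6.59 in WT leukaemias. Here leukaemia 81 lay above every WT array and 83 and 85 below them, and the mean difference was -0.12 (limma adjusted p = 0.980). Without leukaemia 81 that difference was -0.47.

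Ccnd2 encodes cyclin D2, the D cyclin of many growth-factor responses in blood cells. Its ckit-pos values were 5.74, 5.66 and 5.83 in Dnmt3b-knockin leukaemias 81, 83 and 85, against 6.94, 6.32 and 5.89 in WT leukaemias 73, 75 and 79. The WT values were spread widely, and leukaemia 79 lay next to the Dnmt3b-knockin arrays. The Dnmt3b-knockin values were close to the median of all probe sets, which ranged from 5.56 to 5.71 over the 12 arrays. The difference of -0.64 (SE 0.23, 95% interval -1.14 to -0.15), 1.56-fold lower, had a limma adjusted p of 0.358 and an exact permutation p of 0.1, and it was -0.36 without leukaemia 73. On ckit-neg arrays Ccnd2 was 6.30, 5.62 and 5.67 in Dnmt3b-knockin leukaemias, against 6.29, 5.97 and 6.005 in WT leukaemias. Leukaemia 81 was again the high one, and the difference was -0.23 (limma adjusted p = 0.95), against -0.44 without that leukaemia. Ccnd1 and Ccnd2 went up and down together over the 12 arrays, with a Pearson r of 0.84, the highest among the 45 pairs of the 10 genes.

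Ccnd3, which encodes cyclin D3, had ckit-pos values of 9.10, 8.71 and 8.38 in Dnmt3b-knockin leukaemias 81, 83 and 85, against 8.53, 8.43 and 8.23 in WT leukaemias 73, 75 and 79. The ckit-neg values were 9.20, 8.71 and 8.24 in Dnmt3b-knockin leukaemias, against 8.64, 8.41 and 8.79 in WT leukaemias. Genotypes overlapped in both fractions, with differences of 0.33 and 0.10 and limma adjusted p of 0.680 and 0.986. Without leukaemia 81 they were 0.15 and -0.14. The level differed more between leukaemias 81, 83 and 85 than between the fractions of any of them.

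**Figure D3:**
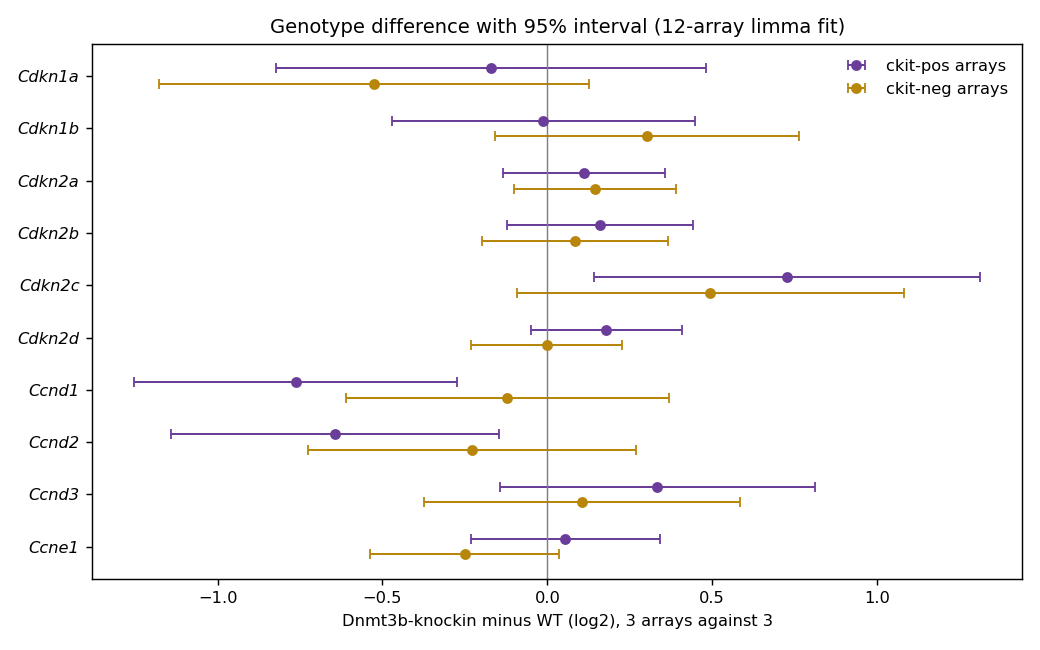
Difference in mean log2 value between Dnmt3b-knockin and WT leukaemias for the 10 genes, in ckit-pos (purple) and ckit-neg (gold) cells. Points are differences of 3 arrays against 3 and bars 95% intervals before adjustment; in ckit-pos cells they lie below 0 for Ccnd1 and Ccnd2 and above 0 for Cdkn2c, none of which passed after adjustment.

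Cdkn2c, the p18 inhibitor of CDK4 and CDK6, had the largest genotype difference of the 6 inhibitors in ckit-pos cells. Its ckit-pos values were 7.41, 6.24 and 6.58 in Dnmt3b-knockin leukaemias 81, 83 and 85, against 5.89, 6.24 and 5.92 in WT leukaemias 73, 75 and 79. On ckit-neg arrays it was 7.06, 6.12 and 6.60 in Dnmt3b-knockin leukaemias, against 6.19, 5.89 and 6.21 in WT leukaemias. Leukaemia 81 was far above all others in both fractions, whereas 83 was level with WT leukaemia 75 in ckit-pos cells, and only decimals beyond those printed keep the groups apart there. In ckit-pos cells the difference was 0.73 (SE 0.27, 95% interval 0.14 to 1.31), 1.65-fold higher, with a limma adjusted p of 0.377, and it was 0.39 without leukaemia 81. The mean of both fractions differed by 0.61 (SE 0.23), again with no overlap, at a limma adjusted p of 0.505 and an exact permutation p of 0.1, and by 0.32 without leukaemia 81.

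Cdkn2d had a small gap in ckit-pos cells, at 7.32, 7.19 and 7.16 in Dnmt3b-knockin leukaemias 81, 83 and 85, against 7.07, 7.10 and 6.97 in WT leukaemias 73, 75 and 79. The difference of 0.18 (SE 0.11) had a limma adjusted p of 0.629, and in ckit-neg cells it was 0.00. Cdkn2a and Cdkn2b, the inhibitors of the locus often silenced in blood cancers, overlapped between genotypes in both fractions. Their Dnmt3b-knockin minus WT differences were 0.11 and 0.16 in ckit-pos cells and 0.15 and 0.08 in ckit-neg cells. The 95% intervals were -0.13 to 0.36 and -0.12 to 0.44 in ckit-pos cells, and -0.10 to 0.39 and -0.20 to 0.37 in ckit-neg cells.

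Cip/Kip inhibitors and cyclin E1 also overlapped between genotypes. Cdkn1a averaged 7.80 ± 0.26 in Dnmt3b-knockin and 7.97 ± 0.31 in WT ckit-pos cells, and 8.23 ± 0.81 in Dnmt3b-knockin and 8.75 ± 0.08 in WT ckit-neg cells (SD, n = 3 each). The wide Dnmt3b-knockin spread in ckit-neg cells came from leukaemia 85, and the difference there was -0.53 with it (limma adjusted p = 0.874) and -0.06 without it. Without leukaemia 81 it was -0.83. Cdkn1b differed by -0.01 in ckit-pos and 0.30 in ckit-neg cells, and Ccne1 by 0.05 and -0.25. Limma adjusted p for these 4 differences ranged from 0.854 to 0.993.

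Genes that act with the 10 were described from lists of the pathway, over both genotypes and in the unpaired limma fit unless stated. The counts below stand against 8.25% of all genes past the threshold in the unpaired fit and 19.6% in the paired one. Many genes of the cell cycle engine rose in ckit-pos cells, the repressors E2f7 and E2f8 among them. Of 10 G1 kinases and partners, 4 rose and 0 fell, with a median difference of 0.54, against -0.03 over all genes. These were Ccna2 (cyclin A2, log2 0.97), Cdkn3 (a CDK phosphatase, 0.68), Cdk6 (0.56) and Ccnh (cyclin H of the CDK-activating kinase, 0.47). Cdk4 was 0.87 higher at a limma adjusted p of 0.0512 and Cdk2 0.53 higher at 0.0774, and in the paired fit these were 0.000732 and 0.00181, where 7 of the 10 rose. Cdkn1c, which encodes the third Cip/Kip inhibitor p57, was not lower in ckit-pos cells, with a difference of 0.36 (limma adjusted p of 0.110 unpaired and 0.0547 paired).

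Of 15 pocket proteins and E2F partners, 6 rose and 0 fell, with a median of 0.34, and in the paired fit 11 rose and 1 fell. Those past the unpaired threshold were E2f8 (log2 0.89) and E2f7 (0.37), repressors of E2F targets, Tfdp1 (0.83) and Tfdp2 (0.36), the dimer partners of E2F proteins, and Lin9 (0.42) and Lin54 (0.29) of the MuvB complex. Rb1, the retinoblastoma gene, differed by -0.04 (limma adjusted p = 0.892). Its relative Rbl1 was 0.55 higher, at an adjusted p of 0.0510 unpaired and 0.000552 in the paired limma fit. E2f1 was 0.30 higher, at 0.209 unpaired and 0.0151 paired.

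The machinery that degrades cyclins and inhibitors had 4 of 15 genes higher and 0 lower, with a median of 0.27, and 8 higher in the paired fit. Skp2 (log2 0.68) and its cofactor Cks1b (0.60), which mark p27 for degradation, Dtl (0.85), which does so for p21, and Cks2 (0.87) were the 4. They were higher in the ckit-pos cells in which Cdkn1a and Cdkn1b RNA was lower. Protein was not measured. Among 24 transcriptional regulators of the members 5 rose and 2 fell, with a median of 0.03. In the paired fit 6 rose and 2 fell. Those that rose in the unpaired fit were Gfi1 (1.08), a repressor of myeloid genes including Cdkn1a, the Polycomb genes Suz12 (0.85), Ezh2 (0.71) and Rnf2 (0.31), and Myc (0.56). Id2 (-1.09) and Klf4 (-0.93), an activator of Cdkn1a, fell.

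Of 17 other targets of p53, 3 fell and 0 rose, with a median of -0.15. They were Trp53inp1 (-1.12), Btg2 (-0.79) and Ddit4 (-0.73). In the paired fit 5 of these targets fell and 1 rose. S phase genes and E2F targets had 13 of 22 higher and 0 lower, with a median of 0.57, led by Tk1 (0.93), Rrm2 (0.79), Rrm1 (1.11), Mcm7 (0.81), Rpa2 (0.47) and Uhrf1 (0.81). In the paired fit 21 were higher and 0 lower. All 19 mitosis genes rose, with a median of 0.97, among them Prc1 (0.97), Aurkb (1.14), Birc5 (0.93), Cdk1 (1.34), Cdc20 (0.59) and Tpx2 (0.98). Array means of the mitosis list were 8.10 to 8.36 on Dnmt3b-knockin ckit-pos and 6.68 to 7.41 on their ckit-neg arrays, and 7.98 to 8.13 on WT ckit-pos and 7.10 to 7.75 on their ckit-neg arrays.

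**Figure D4:**
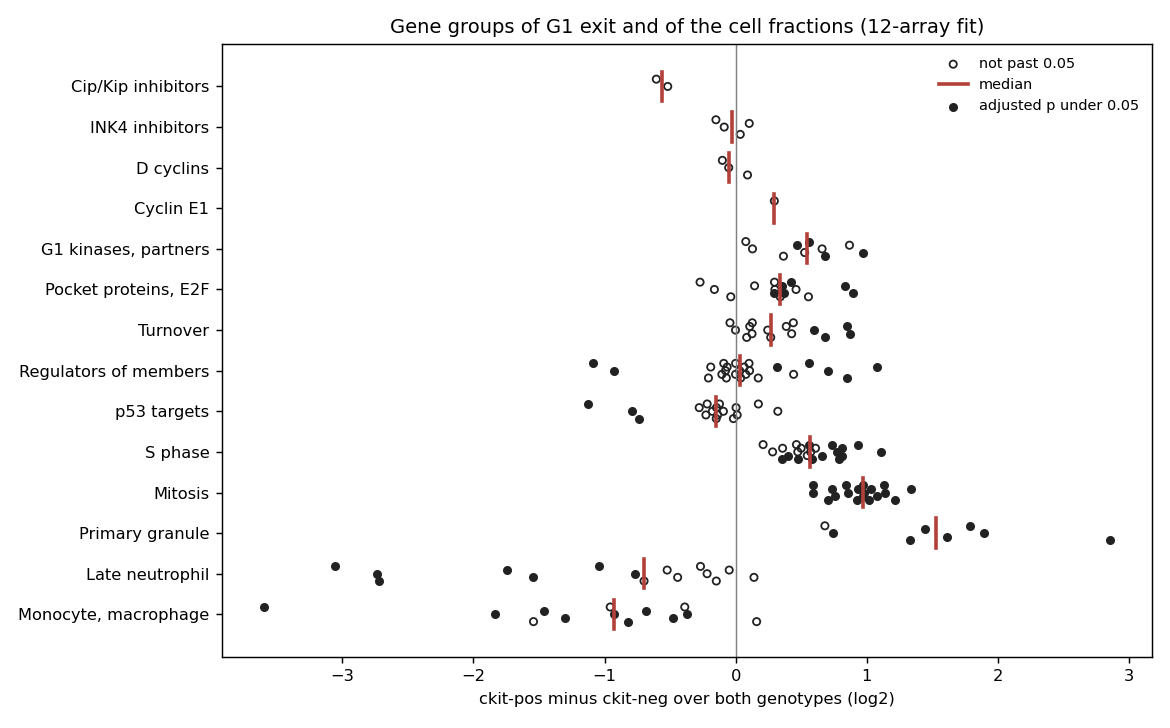
Difference in log2 value between ckit-pos and ckit-neg cells over both genotypes, by gene group. Points are genes (filled where the unpaired limma adjusted p was under 0.05) and red bars group medians. Mitosis genes all lie right of 0, late neutrophil and monocyte genes mostly left of it, and the INK4 and D cyclin groups near 0.

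Maturation markers moved with the same sort. The primary granule list for immature granulocytes held Mpo, Elane, Prtn3, Ctsg, Nkg7, Clec12a, Ms4a3 and Cst7. Of these 8 genes 7 rose (median 1.53), including Mpo (log2 2.85). Of 15 late neutrophil genes 7 fell (median -0.70), including Mmp8 (log2 -3.06) and Ly6g (-1.75), and of 13 monocyte and macrophage genes 9 fell (median -0.93), including Fn1 (-3.59) and Csf1r (-1.46). In the paired fit 8 primary granule genes rose, and 10 late neutrophil and 12 monocyte and macrophage genes fell. Array means of the late neutrophil list were 8.77 to 9.08 on Dnmt3b-knockin ckit-pos and 9.81 to 10.1 on their ckit-neg arrays, and 7.77 to 8.38 on WT ckit-pos and 8.71 to 9.43 on their ckit-neg arrays. The monocyte list averaged 6.92 to 7.02 on Dnmt3b-knockin ckit-pos and 7.72 to 8.54 on their ckit-neg arrays, and 7.06 to 7.33 on WT ckit-pos and 7.68 to 8.49 on their ckit-neg arrays. The part of this shift in cell maturity in the lower Cdkn1a and Cdkn1b and the higher Ccne1 was not tested. Of 10 progenitor genes 2 rose, and 3 did in the paired fit, with a list median of 0.09. The 2 were Myb and Kit, the gene of the sort itself. In other lineages, of 7 B cell genes 1 fell (Ighm). Of 9 T and NK cell genes 1 rose (Nkg7, also on the primary granule list), and of 4 erythroid genes 1 rose (Tfrc). Among megakaryocyte genes 0 of 4 passed, and among stromal and endothelial genes 0 of 6.

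Between genotypes, 0 genes of the G1 kinase, pocket protein and E2F, turnover, regulator, p53 target, S phase and mitosis lists passed in either fraction. In ckit-pos cells the genes of these lists with the smallest p included Id2, Cdkn1c and E2f2, with Dnmt3b-knockin minus WT differences of 1.18, 0.74 and 0.47 (limma adjusted p of 0.145, 0.167 and 0.192). Myc differed by -0.75 there (0.236). Cdk6 differed by -0.39 in ckit-pos and -0.70 in ckit-neg cells (0.433 and 0.351), Cdk4 by -0.59 and -0.60 (0.639 and 0.886), and Rb1 by 0.56 and -0.07 (0.363 and 0.989). Of 15 late neutrophil genes, 3 rose and 12 did not pass in each fraction, against 0.141% of all genes past the limma threshold in ckit-pos and 0.0627% in ckit-neg cells. The medians of the list were 1.03 and 0.75, and Chil3, at -0.16 in ckit-neg cells, had the lowest difference. Ltf was 2.48 and Ly6g 2.09 higher in ckit-pos cells. Of 10 progenitor genes only Mecom passed, in both fractions, at 1.16 and 1.15, whereas the list medians were -0.18 and -0.24. Of 8 genes on the primary granule list only Cst7 passed, lower in ckit-pos cells (log2 -1.91). The medians of that list were -0.03 in ckit-pos and 0.29 in ckit-neg cells. The part of the neutrophil genes in the values of Ccnd1, Ccnd2, Cdkn2c and Cdkn2d, which do not overlap in ckit-pos cells, was not tested.

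As a description, the genes most like each of the 10 over the 12 arrays were picked by Pearson r among the genes tested. The 10 themselves and symbols of predicted or clone-named genes, such as Gm and Rik names, were left out. Ccne1 was most like Stmn1 (r = 0.951), which encodes the microtubule regulator stathmin, and Orc6 (0.944), of the origin recognition complex, and its r with Mki67, the proliferation marker, was 0.892. Cdkn1a was most like Itgal (0.937), an integrin of leukocytes, and Wdr37 (0.888), and Cdkn1b like Bcl3 (0.934), an NF-kB cofactor, and Leng9 (0.924). Cdkn2c was most like P2ry14 (0.944), a receptor for UDP-sugars, and Mid1 (0.913), and Ccnd3 like Sema4a (0.912) and Oas2 (0.903), an interferon-induced gene. For Ccnd1 the nearest were Nxpe3 (0.924) and Acbd4 (0.895), and for Ccnd2 Mrm3 (0.866) and St6galnac4 (0.861). Cdkn2b was nearest to Efnb2 (0.873) and Cep85 (0.868), and Cdkn2d to Olfml2b (0.872) and Cngb1 (0.869). Cdkn2a was most like the olfactory receptor gene Olfr1500 (0.976) and the taste receptor gene Tas2r137 (0.972), besides its r with the array median given above. Between members, the lowest r was -0.61, between Cdkn1b and Ccne1, and Cdkn1a and Cdkn1b had an r of 0.59. The 12 points share leukaemias and fractions, so these values have no p.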

How the data were processed

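RNA of 12 sorted samples was measured on Affymetrix mouse gene arrays. The deposited table held log2 values made with RMA in Affymetrix Expression Console, per the submitters' processing notes, and 0 columns of other samples. They were used as deposited. Of 41345 probe sets, 23521 had 1 gene symbol in the platform annotation, 1814 several, and 16010 were not listed there. The probe set with the highest mean was kept per gene. This gave 22180 genes, of which 19152 exceeded log2 4.61, the 25th percentile, on at least 3 arrays, and 3028 were left out.

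All 12 arrays entered a single limma fit (version 3.58.1, R 4.3.3, statmod 1.5.0) of 4 group means, without a block. Benjamini-Hochberg adjustment ran over all genes tested, with a threshold of 0.05, and all tests were two-sided. The labels give both arrays of a leukaemia 1 number, and their deviations from the group means correlated at 0.279 to 0.601, so a paired fit was run too. It used the leukaemia as a fixed replicate block for c-kit contrasts and the interaction, and as a random one (correlation 0.353) for genotype. For genotype over both fractions, the arrays of a leukaemia were averaged first. The unpaired fit was tested on simulated data, for the c-kit difference over both genotypes and with arrays drawn independently. The paired fit was not tested in this way.

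The 10 genes and all gene lists were chosen with earlier results of these data known. Named genes are the 10, Dnmt3b, Kit, the direct partners Cdk2, Cdk4, Cdk6, Rb1, Rbl1, E2f1 and Myc, up to 6 genes past the threshold per list described (smallest p first), and the 2 genes most like each member. Mpo, Fn1, Csf1r, Mmp8, Ly6g, Ltf, Mecom and Cst7 come under the lists, and Mki67, Chil3 and the c-kit difference of Cdkn1c were added after their values were seen. Alternatives were other scalings, no filter, the mean of all probe sets, other arrays in the fit, and the block. The number of arrays limits the precision.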

Additional observations from a re-analysis of the deposited data

Results flagged for a closer look

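The c-kit difference of each of the 10 genes was checked over the 6 leukaemias for a single value far from the rest, by the gap to the nearest value as a share of the whole range. Chance alone marks about 1 in 20 such groups. Among the 10 genes, 2 were marked. Ccnd1 was 1 of them, since its ckit-pos minus ckit-neg difference in Dnmt3b-knockin leukaemia 81 was -1.11, against -0.05 to 0.37 in the other 5 leukaemias, a gap of 0.720 of the range. Ccnd3 was the other, with a difference of -0.56 in WT leukaemia 79, against -0.11 to 0.13 in the other 5, a gap of 0.647 of the range.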

How the results depend on the processing

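Counts of the 10 genes that passed depended on the pairing and on single leukaemias. In the paired fit (replicate block) 3 passed over both genotypes, 2 in Dnmt3b-knockin and 1 in WT leukaemias, against 0 in each without the block, and the block changed no call between genotypes or of the interaction. Of all genes, 19.6% passed over both genotypes, 8.7% in Dnmt3b-knockin and 11% in WT leukaemias in the paired fit. Without the block these shares were 8.25%, 1.88% and 0.768%. In the unpaired fit, quantile normalization gave 2 over both genotypes (Cdkn1a and Cdkn1b). Over all genes it gave 1699 of 19115, against 1580 of 19152 for the values as deposited. A fit of the 6 arrays of the comparison alone gave 1 between genotypes in ckit-pos cells (Ccnd1) and 1 between fractions in WT leukaemias (Cdkn1a). Leaving out a leukaemia gave 0 to 1 between genotypes in ckit-pos cells (Ccnd1, without 81), 0 to 1 between fractions in WT (Cdkn1a, without 85) and 0 to 2 over both genotypes (Ccne1 without 81, Cdkn1a and Cdkn1b without 85). Over all genes, leaving out a leukaemia gave 0 to 123 between genotypes in ckit-pos cells, the most without 81. Between fractions in WT it gave 1 to 665, with 569 without 85. Over both genotypes it gave 503 to 2092, with 2092 without 81 and 1593 without 85. Single arrays were left out after seeing the data. Without the ckit-neg array of leukaemia 81, 1 passed between genotypes in ckit-pos cells, 1 between fractions in Dnmt3b-knockin and 1 over both genotypes, and without that of leukaemia 85 these counts were 0, 1 and 2, with 1 in WT, so that the ranges over single arrays were 0 to 1 and, over both genotypes, 0 to 2. Over all genes, the setting without the ckit-neg array of 81 gave 123, 956 and 3034 in the same order. All arrays gave 27, 360 and 1580. The setting without the ckit-neg array of 85 gave 49, 392 and 1410, and 445 in WT against 147 with all arrays. Paired fits under other settings were also added after seeing the data. Over both genotypes they gave 2 after quantile normalization and without 73, 75, 83 or 85, for a range of 2 to 3. For Dnmt3b-knockin leukaemias they gave 1 in place of 2 with no filter, with quantile normalization and with the mean of all probe sets, and 1 to 2 when a leukaemia was left out. In WT, leaving out 73, 75 or 79 gave 0, for a range of 0 to 1. Over all genes, the paired fits over both genotypes gave 3527 after quantile normalization, against 3758 without it. They gave 2752, 2641, 2726 and 2978 without 73, 75, 83 and 85. In Dnmt3b-knockin leukaemias they gave 1607 with no filter, 1634 with quantile normalization and 1603 with the mean of all probe sets, against 1666. Leaving out a leukaemia gave 747 to 1688 there. WT leukaemias gave 584, 434 and 1210 without 73, 75 and 79, against 2109 with all. Where the arrays left out were not part of a comparison, its difference stayed the same. Examples are Ccnd1 in ckit-pos cells (-0.76 without the ckit-neg array of 81) and Cdkn1a in WT (-0.78 without 85). Such a call can change only through the estimate of the spread and the adjustment over genes. The cause of the other changes was not tested. Each of the 10 genes has 1 probe set, so the probe set rule acts only through the adjustment. Of 1530 values of the 10 genes under alternatives, 62 changed sign, and in 0 of these did the reported value exceed its SE without the block. With the smaller paired SE this did not hold for every value. The Cdkn1a interaction of 0.35 had a paired SE of 0.27 and reached -0.11 under an alternative.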
